A study of Homo sapiens with 11 samples.

Results

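Transcription factor NF-kB, its feedback inhibitors and the secreted cytokine genes it is known to switch on were followed in lung cancer cells depleted of METTL3. METTL3 is the catalytic subunit of the enzyme that writes the RNA mark m6A (N6-methyladenosine). The 36 genes were listed by name and by role. They comprise 4 NF-kB subunits, 8 inhibitors and feedback genes, 8 chemokines, 7 interleukin genes with the receptor gene IL7R among them, 6 other cytokines, and 3 genes for surface proteins or an enzyme. All 36 were listed among the 21316 genes of the A549 table, and 34 among the 20915 genes of the H1299 table, where CXCL6 and IL6 were not listed. To be tested, a gene needed an average of at least 1 across its line's 3 libraries, which was met by 35 members in A549 and 30 in H1299, and by 29 in both lines. TNFSF13B missed it in A549, and CCL20, IL7R, CSF2 and TNF in H1299.

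Both lines are established human cell lines. A549 comes from a lung adenocarcinoma, and H1299 from a lymph node metastasis of a lung carcinoma. In each line, 2 RNA-seq libraries came from cells carrying a short hairpin RNA (shRNA) against METTL3, numbered 1 and 2 (shMETTL3), and 1 library from cells carrying an shRNA against GFP (shGFP), a gene that human cells lack. Whether a number marks a hairpin or a replicate is not in the labels, and neither is whether each library had its own culture. The p-values thus measure the spread between these libraries alone, which may be technical. No stimulus such as TNF is named in the labels, so the levels are read as those of cultured, shRNA-carrying cells without an added stimulus. Each line is 1 model, and the lone shGFP library per line gives no spread of its own.

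NF-kB proteins form dimers that the I-kB proteins hold in the cytoplasm. Signals from TNF and interleukin receptors or from pattern receptors activate the I-kB kinase, I-kB is degraded, and the dimers enter the nucleus. There they bind kappa B sites in promoters and enhancers and switch on chemokines, cytokines and also their own brakes, NFKBIA and TNFAIP3. A slower branch, set off by receptors such as the lymphotoxin receptor, works through the processing of the NFKB2 protein and its partner RELB. In the airway, epithelial cells use this system to call neutrophils and monocytes, and lung tumour cells often keep it partly on without a stimulus.

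The kappa B consensus was searched in promoter windows of 300 bases, from 250 before to 50 after each annotated start site, taken from RefSeq on build GRCh38.p14. Windows were at hand for 29 of the 36 members. The consensus, 10 bases long, was searched on both strands, with overlapping matches merged. It was found in 17 of these 29 members (58.6%), against 3619 of all 27305 genes with a window (13.3%). By window it was found in 20 of 42 member windows (47.6%), against 11.3% of all windows. As members were listed as NF-kB genes and known targets, a higher share was built into that choice. The 6 stretches of 100 bases given here, running from 130 to 31 bases before the start site and each written 5′ to 3′ on the gene's own strand, carry such matches. They were picked because the 5 neutrophil-attracting chemokines lie in 1 cluster on chromosome 4 and differed in their values, and NFKBIA is the main inhibitor of the pathway. Capitals mark the kappa B match.
CXCL1, chr4:73869263-73869362, plus strand: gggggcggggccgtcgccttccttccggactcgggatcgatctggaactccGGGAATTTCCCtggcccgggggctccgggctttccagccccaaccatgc
CXCL2, chr4:74099226-74099325, minus strand: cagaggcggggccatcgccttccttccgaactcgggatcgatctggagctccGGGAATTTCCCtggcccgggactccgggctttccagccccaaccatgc
CXCL3, chr4:74038720-74038819, minus strand: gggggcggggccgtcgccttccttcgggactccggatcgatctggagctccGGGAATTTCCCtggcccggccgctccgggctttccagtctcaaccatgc
CXCL5, chr4:73998708-73998807, minus strand: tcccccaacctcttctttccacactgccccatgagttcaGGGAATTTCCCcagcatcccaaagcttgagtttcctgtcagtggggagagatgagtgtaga
CXCL6, chr4:73836548-73836647, plus strand: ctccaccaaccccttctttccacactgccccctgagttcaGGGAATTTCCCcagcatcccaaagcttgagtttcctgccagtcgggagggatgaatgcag
NFKBIA, chr14:35404780-35404879, minus strand: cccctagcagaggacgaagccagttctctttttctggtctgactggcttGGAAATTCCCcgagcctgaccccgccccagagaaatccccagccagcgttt
The 5 chemokine stretches hold the same capital letters, which match the consensus on both strands, beginning 79 bases before the start site in CXCL1 and CXCL3, 78 in CXCL2, 91 in CXCL5 and 90 in CXCL6. In NFKBIA the match begins 81 bases before the start site. A match is a description of the letters, and binding of NF-kB was not measured.

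**Figure D1:**
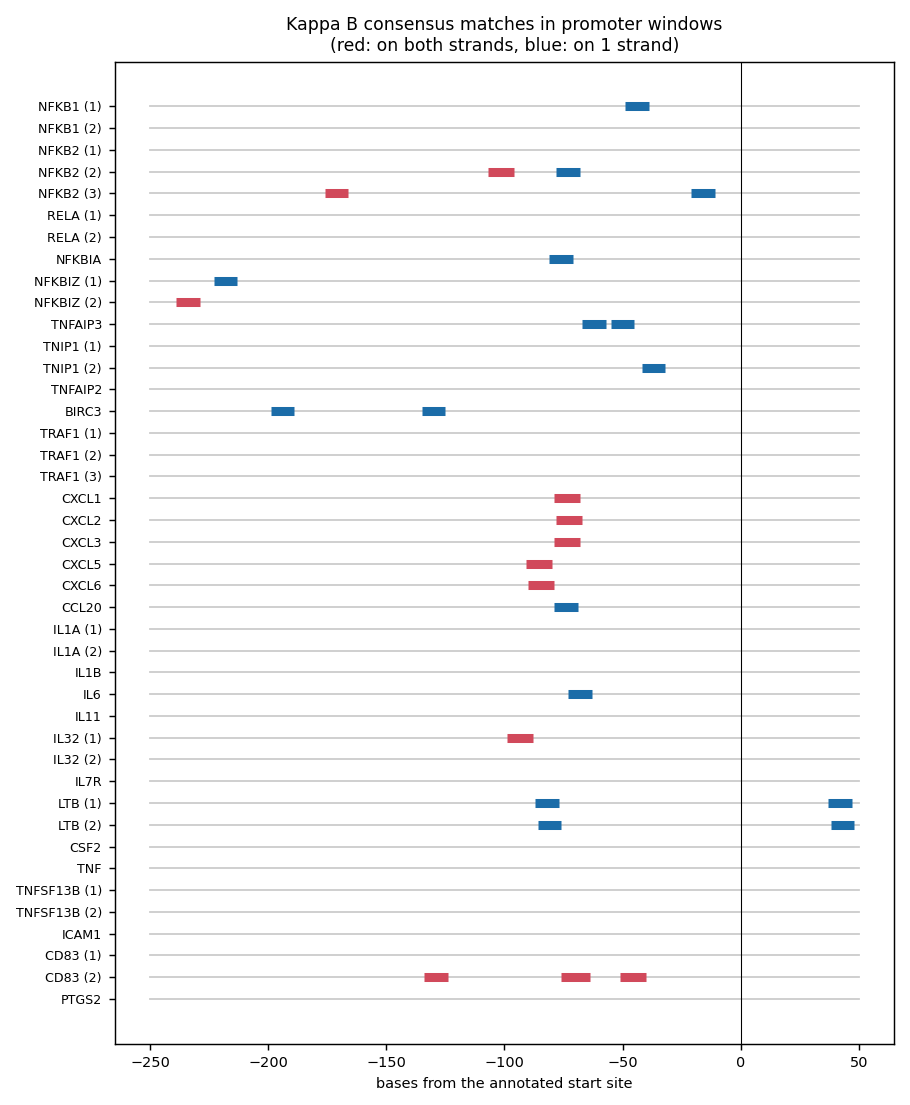
Matches to the kappa B consensus in the 42 promoter windows of 29 members, 1 row per window, with a number where a gene has several start sites. The horizontal axis gives bases from the annotated start site, negative before it, and each mark is a match, red on both strands and blue on 1 strand. The matches of CXCL1, CXCL2, CXCL3, CXCL5 and CXCL6 sit between 68 and 91 bases before the start.

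Values are the authors' scaled read numbers, in which whole reads were divided by 1 factor per library. Reads were recovered by multiplying back. H1299 values carry 1 decimal, and 1 read is worth about 0.2 there. H1299 reads are thus the nearest whole numbers, and their intervals do not include that rounding. Reads in genes numbered 14447379 to 19966206 per A549 library and 23099169 to 26351309 per H1299 library. METTL3 itself stood at 231 and 232 in A549 shMETTL3 libraries 1 and 2, against 557 in shGFP. In H1299 it stood at 123 and 100.2, against 271 in shGFP, so that all 4 knockdown libraries lay below their control. Of the leukocyte markers, PTPRC stood at 0, 0 and 0.26 in the A549 libraries and at 0.7, 0.2 and 0.2 in H1299, and CD3E was listed in neither table. The leukocyte markers, 8 of 9 listed in A549 and 7 in H1299, summed to 212 to 236 in A549 and 274 to 297 in H1299, most of it CD68. All 6 epithelial markers were expressed in A549. In H1299, KRT18 stood at 1075 to 1419, KRT8 at 113 to 189 and KRT7 at 27.6 to 33.8, whereas CDH1 stood at 1.0 to 1.1, EPCAM at 0 to 0.4 and KRT19 at 0. In such bulk samples, fewer cells of a type and less RNA per cell cannot be told apart.

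No member passed the test for a METTL3 knockdown change in either line or in both together. limma on log2(value + 1), with Benjamini-Hochberg adjustment over all genes, called 0 of 35 members and 0 of 17454 genes (0%) in A549. It called 0 of 30 members and 0 of 16470 genes (0%) in H1299, and 0 of 29 members and 0 of 15546 genes (0%) over both lines. edgeR's quasi-likelihood test on the recovered A549 reads also called 0 genes. At an unadjusted p under 0.05 stood 1 member in A549 (LTB), where 115 of all genes (0.659%) did so. In H1299 there were 2 such members (TNFSF13B and IL18; 99 genes, 0.601%), and over both lines 2 (LTB and IL32; 374 genes, 2.41%). METTL3 itself was not called in these fits, at log2 changes of -1.26 in A549, -1.28 in H1299 and -1.27 over both lines. Its limma adjusted p over both lines was 0.139. The lack of calls thus does not show a lack of change in the members. With 1 residual degree of freedom per line, limma moderates each gene's spread with that of all genes, so each library's value is given as well.

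**Figure D2:**
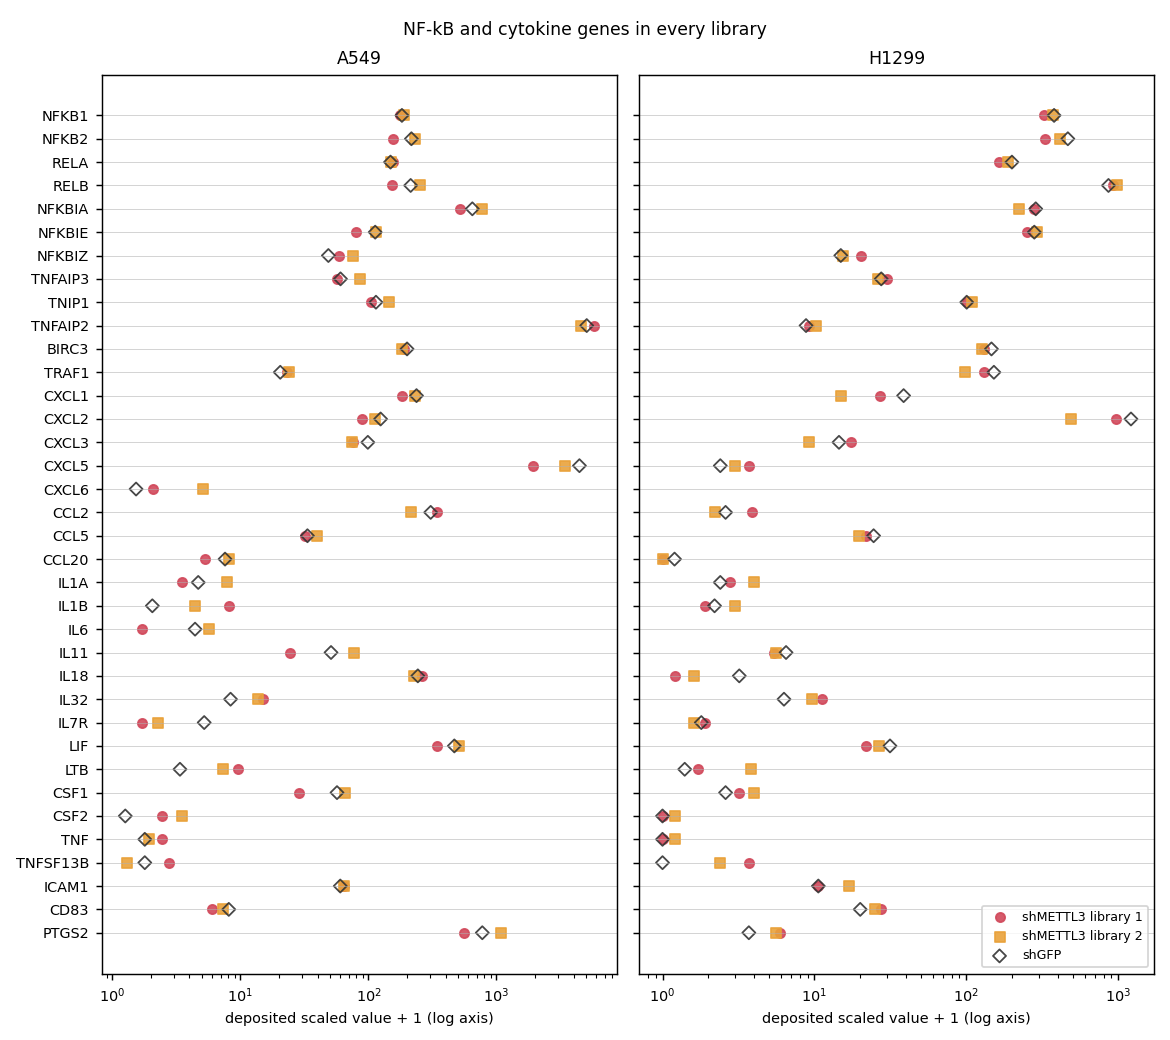
Scaled value plus 1 of each member (rows, grouped by role) in every library, with A549 on the left and H1299 on the right, on a log axis. Red circles are shMETTL3 library 1, orange squares library 2 and open diamonds shGFP. CXCL5 and TNFAIP2 have values of 1941 or more in all 3 A549 libraries and of 9.2 or less in all 3 H1299 libraries.

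Among the NF-kB subunits in A549, RELA, the main activating subunit, stood at 153 and 149 in shMETTL3 libraries 1 and 2, against 148 in shGFP. NFKB1, whose product partners RELA, stood at 174 and 190.0, against 182 in shGFP. RELB and NFKB2, the subunits of the slower branch, were less even. RELB stood at 151 and 253 in A549 shMETTL3 libraries 1 and 2, against 213 in shGFP. NFKB2 stood at 156 and 230.3, against 216 in shGFP. For both genes library 1 lay below shGFP and library 2 above it, so the knockdown libraries spanned their control.

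In H1299 scaled values, 3 of the 4 subunits lay below shGFP in both knockdown libraries, as did 24.5% of all genes. RELB stood at 914 and 982 in H1299 shMETTL3 libraries 1 and 2, against 859 in shGFP, and was the 1 subunit above its control in both, in library 1 by a log2 difference of 0.09, equal to that of the median gene. NFKB2 stood at 326 and 411, against 464 in shGFP. NFKB1 stood at 322 and 372, against 376 in shGFP. Its library 2 log2 difference was -0.0165, beside -0.0368 for the median gene. As reads per 1000000 gene reads without the ribosomal precursor RNA45S5, NFKB1 lay above shGFP in library 2, at 97.9 against 94.7. RELA, at 162 and 188 against 198 in shGFP, completed the 3, none of which passed the test.

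Among the inhibitors and feedback genes, NFKBIA, the I-kB protein that NF-kB itself induces, stood at 514 and 772 in A549 shMETTL3 libraries 1 and 2, against 647 in shGFP. In H1299 it stood at 279 and 221, against 285 in shGFP. The A549 libraries lay on either side of their control, and the H1299 libraries below theirs. NFKBIE, a further I-kB protein, stood at 79.6 and 114 in A549 shMETTL3 libraries and 112 in shGFP, and at 249 and 289.6 in H1299 shMETTL3 libraries and 279 in shGFP. TNFAIP3, which encodes the ubiquitin-editing brake A20, stood at 56.1 and 84.4 in A549 shMETTL3 libraries, against 59.5 in shGFP, and at 28.9 and 25.2 in H1299, against 26.5. TNIP1, a partner of A20, followed the same A549 order with 104 and 143 against 113 in shGFP, while in H1299 it stood at 100.2 and 107 against 99.4.

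NFKBIZ, a nuclear I-kB protein that helps switch on secondary targets, was 1 of 3 members above the control in all 4 knockdown libraries. It stood at 57.5 and 75.3 in A549 shMETTL3 libraries 1 and 2, against 47.6 in shGFP, and at 19.1 and 14.4 in H1299, against 13.9. BIRC3, an inhibitor of apoptosis that also acts in receptor signalling, was 1 of 3 members below the control in all 4. It stood at 189 and 181 in A549 shMETTL3 libraries against 199 in shGFP, and at 130 and 125 in H1299 against 145. TRAF1, an adaptor of TNF receptors, stood at 22.1 and 23.1 in A549 shMETTL3 libraries, against 19.5 in shGFP, and at 129 and 96.8 in H1299, against 151. TNFAIP2, a TNF-induced gene, stood at 5751 and 4541 in A549 shMETTL3 libraries, against 5068 in shGFP, and at 8.2 and 9.2 in H1299, against 7.8. NFKBIZ overlaps NXPE3 and TRAF1 overlaps PHF19 in the annotation, and both neighbours were listed. With the strand setting of the authors' counting not given in the sources used here, reads of these pairs may be shared.

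Among the chemokines, CXCL5, a neutrophil attractant, stood at 1941 and 3410.3 in A549 shMETTL3 libraries 1 and 2, against 4446 in shGFP. Both knockdown libraries lay below the control, at ratios to shGFP of 0.437 (95% interval 0.423 to 0.450) and 0.767 (0.749 to 0.786). These intervals, exact binomial ones on the reads, cover counting error only and compare libraries, not conditions. In H1299, where CXCL5 gave 12, 10 and 7 reads, it stood at 2.7 and 2.0 against 1.4 in shGFP. The interaction term had a log2 difference of -1.26 (SE 0.51) between the changes in A549 and H1299, with a limma adjusted p of 1.

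CXCL1 and CXCL2 were the other 2 members below the control in all 4 knockdown libraries. CXCL1 stood at 181 and 230.0 in A549 shMETTL3 libraries, against 236 in shGFP, and at 26 and 14 in H1299, against 37.6. CXCL2 stood at 87.5 and 111 in A549 shMETTL3 libraries, against 123 in shGFP, and at 969.6 and 483 in H1299, against 1209. The shortfall in H1299 was uneven, with CXCL2 at 0.802 (0.771 to 0.834) of shGFP in library 1 and 0.400 (0.381 to 0.419) in library 2. CXCL1 did likewise there, at 0.691 (0.544 to 0.874) in library 1 and 0.372 (0.279 to 0.491) in library 2. CXCL3 stood at 74.3 and 73.1 in A549 shMETTL3 libraries, against 97.9 in shGFP, and at 16.4 and 8.2 in H1299, against 13.5. CXCL1, CXCL2 and CXCL3 are near-identical copies, so reads could have been split among them and their separate values are uncertain.

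CXCL6, of the same chemokine cluster as CXCL5, gave 3 and 13 reads in A549 shMETTL3 libraries 1 and 2, against 2 in shGFP, too few to place. CCL2, which attracts monocytes, stood at 341 and 215 in A549 shMETTL3 libraries, against 305 in shGFP, and at 2.9 and 1.2 in H1299, against 1.6. In both lines library 1 lay above the control and library 2 below it. CCL5, which attracts T cells, stood at 30.7 and 38.4 in A549 shMETTL3 libraries against 32.4 in shGFP, and at 20.9 and 18.6 in H1299 against 23.5. CCL20, which attracts dendritic and T helper cells, stood at 4.29 and 7.19 in A549 shMETTL3 libraries against 6.58 in shGFP, and gave 0 and 0 reads in H1299 shMETTL3 libraries against 1 in shGFP.

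Among the interleukins, IL32, a cytokine of epithelial and immune cells, was the 1 member at least 1.5-fold higher in all 4 knockdown libraries. It stood at 13.9 and 12.8 in A549 shMETTL3 libraries 1 and 2, against 7.37 in shGFP, and at 10.2 and 8.6 in H1299, against 5.3. Of all genes tested in both lines, 6 (0.0386%) met that rule. Ratios to shGFP were 1.89 (1.13 to 3.19) and 1.74 (1.05 to 2.92) in A549, from 39, 41 and 28 reads. In H1299 they were 1.93 (1.18 to 3.23) and 1.62 (0.981 to 2.73), from 46, 43 and 27 reads, and the last interval includes 1. The limma log2 changes were 0.78 (SE 0.36) in A549, 0.72 (SE 0.35) in H1299 and 0.75 (SE 0.21) over both lines, each with an adjusted p of 1.

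IL1B, the secreted inflammatory interleukin, stood at 7.14 and 3.44 in A549 shMETTL3 libraries, against 1.05 in shGFP, or 20, 11 and 4 reads. Its log2 change there was 1.55 (SE 0.59; limma adjusted p = 1), and in H1299 it stood at 0.9 and 2.0 against 1.2. IL7R, the interleukin receptor of the set, gave 2 and 4 reads in A549 shMETTL3 libraries against 16 in shGFP, a log2 change of -1.41 (SE 0.55; limma adjusted p = 1). IL18, which drives interferon gamma production, stood at 260.0 and 225 in A549 shMETTL3 libraries, against 242 in shGFP. In H1299 it gave 1 and 3 reads, against 11 in shGFP, at ratios of 0.103 (0.0024 to 0.709) and 0.278 (0.0498 to 1.05). The H1299 log2 change was -1.21 (SE 0.43; limma adjusted p = 1) and the interaction term 1.21 (SE 0.47; limma adjusted p = 1). All of these members rest on few reads in at least 1 line.

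IL11, a cytokine of the interleukin-6 family, stood at 23.6 and 76.3 in A549 shMETTL3 libraries, against 50 in shGFP. The ratios to shGFP were 0.471 (0.351 to 0.627) in library 1 and 1.53 (1.26 to 1.85) in library 2, on opposite sides of the control and each past counting error. IL11 in H1299 stood at 4.4 and 4.6, against 5.5 in shGFP. IL1A stood at 2.5 and 6.88 in A549 shMETTL3 libraries against 3.68 in shGFP, and at 1.8 and 3.0 in H1299 against 1.4. IL6, the acute-phase interleukin, gave 2 and 15 reads in A549 shMETTL3 libraries, against 13 in shGFP.

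Among the other cytokines, LTB, a membrane lymphotoxin that feeds the NFKB2 branch, stood above the control in all 4 knockdown libraries. It stood at 8.57 and 6.25 in A549 shMETTL3 libraries 1 and 2, against 2.37 in shGFP, and at 0.7 and 2.8 in H1299, against 0.4. The A549 log2 change was 1.31 (SE 0.46; limma adjusted p = 1), from 24, 20 and 9 reads. The H1299 values rest on 3, 14 and 2 reads, with ratios of 1.7 (0.195 to 20.4) and 7.14 (1.64 to 64.7). LIF, of the same cytokine family as IL11, stood at 341 and 513 in A549 shMETTL3 libraries, against 468 in shGFP, and at 20.9 and 25.4 in H1299, against 30.4. CSF1, the macrophage growth factor, stood at 27.9 and 64.1 in A549 shMETTL3 libraries, against 55.8 in shGFP, and at 2.2 and 3.0 in H1299, against 1.6. For both, A549 library 1 lay below the control and library 2 above it.

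CSF2, the granulocyte and macrophage growth factor, gave 4 and 8 reads in A549 shMETTL3 libraries against 1 in shGFP. Its ratios to shGFP were 5.43 (0.537 to 267) and 9.5 (1.27 to 422), and its log2 change 1.21 (SE 0.60; limma adjusted p = 1). TNF itself, the classic inducer of the pathway, was near the limit of detection, with 4 and 3 reads in A549 shMETTL3 libraries and 3 in shGFP, and 0 and 1 in H1299 against 0. TNFSF13B, the B cell survival factor, gave 12 and 7 reads in H1299 shMETTL3 libraries against 0 in shGFP. Set against a floor of 3 reads in the shGFP library, its values in libraries 1 and 2 were 4.59-fold and 2.38-fold that floor. These folds leave out the counting error of the 12 and 7 reads and are no lower limits. The fitted log2 change of TNFSF13B in H1299, 1.58 (SE 0.46), depends on the pseudocount. In A549 it gave 5 and 1 reads, against 3 in shGFP.

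Among the surface and enzyme genes, PTGS2, the inducible enzyme of prostaglandin synthesis, stood at 552 and 1076 in A549 shMETTL3 libraries 1 and 2, against 774 in shGFP. Its ratios to shGFP were 0.713 (0.670 to 0.759) and 1.39 (1.32 to 1.46), again on opposite sides of the control. PTGS2 in H1299 stood at 4.9 and 4.6, against 2.7 in shGFP, a log2 change of 0.64 (SE 0.36; limma adjusted p = 1) from 22, 23 and 14 reads. ICAM1, an adhesion molecule for leukocytes, stood at 63.9 and 63.8 in A549 shMETTL3 libraries against 59.2 in shGFP, and at 9.6 and 16.0 in H1299 against 9.6. CD83, a surface protein of activated antigen-presenting cells, stood at 5.0 and 6.25 in A549 shMETTL3 libraries against 7.11 in shGFP, and at 26.4 and 24.2 in H1299 against 19.0.

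By size alone, a 1.5-fold rule on log2(value + 1) in both knockdown libraries of a line picked few members, and these gave low values. In A549 it picked 4 of 35 members as higher (CSF2, IL1B, IL32 and LTB), where 1.66% of all genes were, and 1 as lower (IL7R), where 0.779% were. In H1299 it picked 3 of 30 as higher (IL32, PTGS2 and TNFSF13B; 1.15% of all genes) and 1 as lower (IL18; 0.455%). None of these had a mean of 20 or more in the line concerned, but with median centring CXCL1, which does, replaced PTGS2 in H1299. By direction alone, 10 members of 35 were higher in both A549 libraries (27.2% of all genes) and 7 lower (27.2%), and in H1299 12 of 30 were higher (30.6%) and 12 lower (24.5%). With a mean of at least 20, 3 of 15 H1299 members were higher in both libraries (30.0% of such genes) and 10 lower (24.3%), namely BIRC3, CCL5, CXCL1, CXCL2, LIF, NFKB1, NFKB2, NFKBIA, RELA and TRAF1. In A549 the like counts were 4 of 24 higher (24.9%) and 5 lower (28.1%). The H1299 directions depend on the scaling, as the ribosomal precursor RNA45S5 took 20.5 to 25.4% of reads there. With RNA45S5 left out, NFKB1 in H1299 library 2 lay above shGFP, at 97.9 against 94.7 reads per 1000000. TNIP1 in H1299 library 1 then lay below shGFP, at 24.6 against 25.0. Over both lines, 3 of 29 members were above shGFP in all 4 knockdown libraries (10.5% of all genes) and 3 below (9.05%), shares near those of all genes. CD83, CXCL5, RELA and TRAF1, 4 of 29 members, had both knockdown libraries on 1 side of shGFP in A549 and on the other in H1299 (11.7% of all genes). The interaction term called 0 members and 0 genes (0%), with 2 members (IL18 and CXCL5) and 49 genes (0.315%) at an unadjusted p under 0.05. The median log2 change of the members was -0.01 in A549, 0.04 in H1299 and -0.06 over both lines, beside 0.00, 0.02 and 0.01 for all genes tested.

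**Figure D3:**
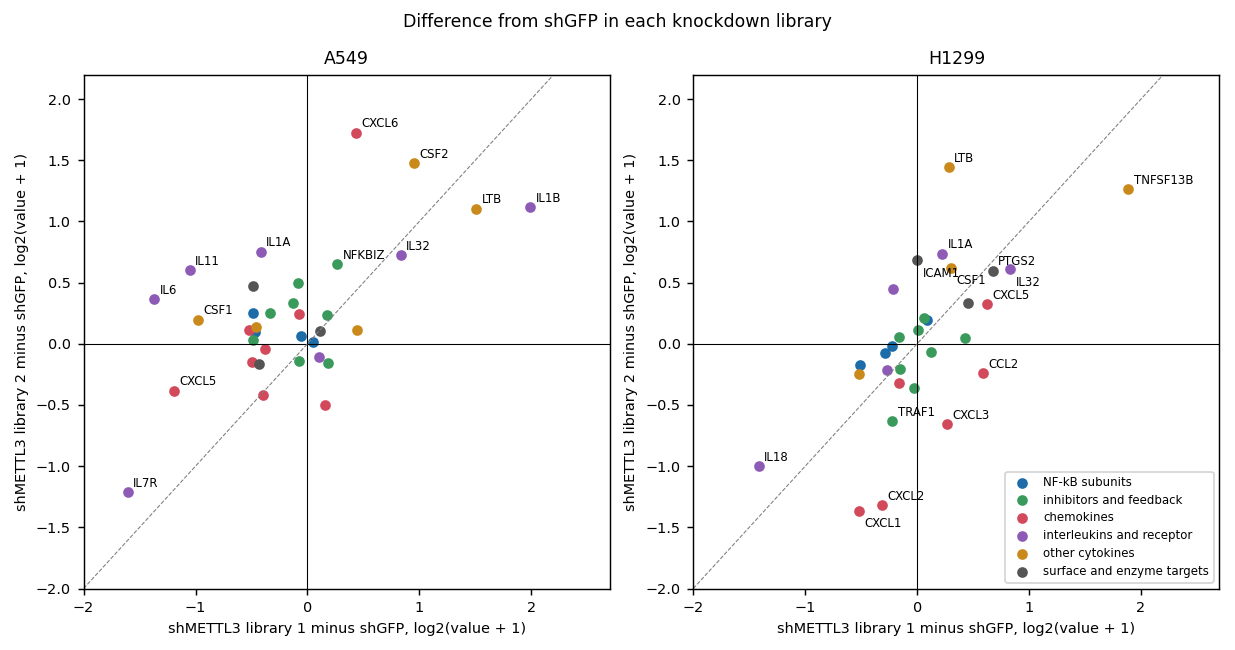
Difference from shGFP of each tested member in shMETTL3 library 1 (horizontal) and library 2 (vertical), on the log2(value + 1) scale, for A549 and H1299. Colours give the role and the dashed line marks equal differences. In A549, 15 of 35 members lie in the upper left panel area, below shGFP in library 1 and above it in library 2.

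The A549 members split between the numbered libraries. Library 1 lay below shGFP and library 2 above it for 15 of 35 members (42.9%), where 20.5% of all genes did so. Among members with a mean of at least 20 this held for 12 of 24, against 21.5% of such genes. The 15 were CCL20, CCL5, CSF1, IL11, IL1A, IL6, LIF, NFKB1, NFKB2, NFKBIA, NFKBIE, PTGS2, RELB, TNFAIP3 and TNIP1. These counts take differences of any size. Members were chosen with earlier results of these data known, so the shares describe these libraries and are no test. The counting intervals of both ratios to shGFP excluded 1 for IL11, LIF, NFKBIA, PTGS2 and RELB, and not for the rest. NFKB1, for instance, had ratios of 0.960 (0.853 to 1.08) and 1.05 (0.937 to 1.17). The opposite split, library 1 above and library 2 below, was seen for 3 members (CCL2, IL18 and TNFAIP2), against 24.9% of all genes. In H1299 the first split held for 2 of 30 members (IL1B and NFKBIE; 12.4% of all genes) and the second for 3 (CCL2, CXCL3 and TNFAIP3; 30.3%).

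Set against each other directly, A549 library 1 was lower than library 2 for 24 of 35 members (47.0% of all genes). It was at least 1.5-fold lower for 11 members (31.4%), where 7.45% of all genes were, and among those with a mean of at least 20 for 7 of 24, where 4.44% were. In IL11 the ratio of library 1 to library 2 was 0.309 (0.232 to 0.407), in CSF1 0.435 (0.331 to 0.567) and in PTGS2 0.513 (0.483 to 0.545). CXCL5 had a ratio of 0.569 (0.551 to 0.588), RELB of 0.598 (0.531 to 0.674), LIF of 0.664 (0.612 to 0.720) and NFKBIA of 0.665 (0.623 to 0.710). The remaining 4 of the 11, CCL20, CXCL6, IL1A and IL6, had at most 25 reads in any library. Only CCL2 and IL1B were at least 1.5-fold higher in A549 library 1 (12.4% of all genes), CCL2 at a ratio of 1.59 (1.44 to 1.75). The counting interval lay wholly below 1 for 17 members (18.9% of all genes) and wholly above 1 for 3, CCL2, IL18 and TNFAIP2 (22.8%). The members' median log2 difference of library 1 from library 2 was -0.38 in A549, beside 0.03 for all genes. With members chosen knowing earlier results of these data, these shares too are description and no test.

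A549 library 1 also stood apart in other genes. The 6 epithelial markers summed to 41376 in shMETTL3 library 1 and 34945 in library 2, against 35722 in shGFP. KRT19 stood at 1396 and 427, against 422 in shGFP, CDH1 at 646 and 284 against 386, and EPCAM at 75.4 and 14.1 against 22.6. KRT8 stood at 12213 and 8420.3 against 8906 and KRT18 at 11824 and 8957 against 8964, while KRT7 went the other way, at 15220.4 and 16843 against 17021. Of the 4 mesenchymal markers, FN1, which encodes fibronectin, stood at 5894 and 532, against 882 in shGFP, VIM at 6975 and 7439 against 7562, ZEB1 at 38.2 and 46.9 against 47.6, and CDH2 at 246 and 268 against 200. METTL3 stood at 231 and 232 in these 2 libraries. The part of these differences in the members' values was not tested.

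In H1299 the 2 numbers gave other counts. Library 1 was lower than library 2 for 15 of 30 members (34.3% of all genes), and the median difference was -0.00 on the log2 scale, beside 0.13 for all genes. Library 1 was at least 1.5-fold lower for 3 members (ICAM1, IL1B and LTB; 4.14% of all genes). It was at least 1.5-fold higher for 5 (CCL2, CXCL1, CXCL2, CXCL3 and TNFSF13B; 10.8%). CXCL2 led with a ratio of 2.01 (1.91 to 2.11). Counting intervals lay below 1 for 7 members (13.0% of all genes), among them all 4 NF-kB subunits, and above 1 for 5 (34.0%). RELB had a ratio of library 1 to library 2 of 0.930 (0.892 to 0.970), and NFKB2 of 0.793 (0.741 to 0.848). CXCL1 and CXCL2 thus lay lower in library 1 in A549 and lower in library 2 in H1299.

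**Figure D4:**
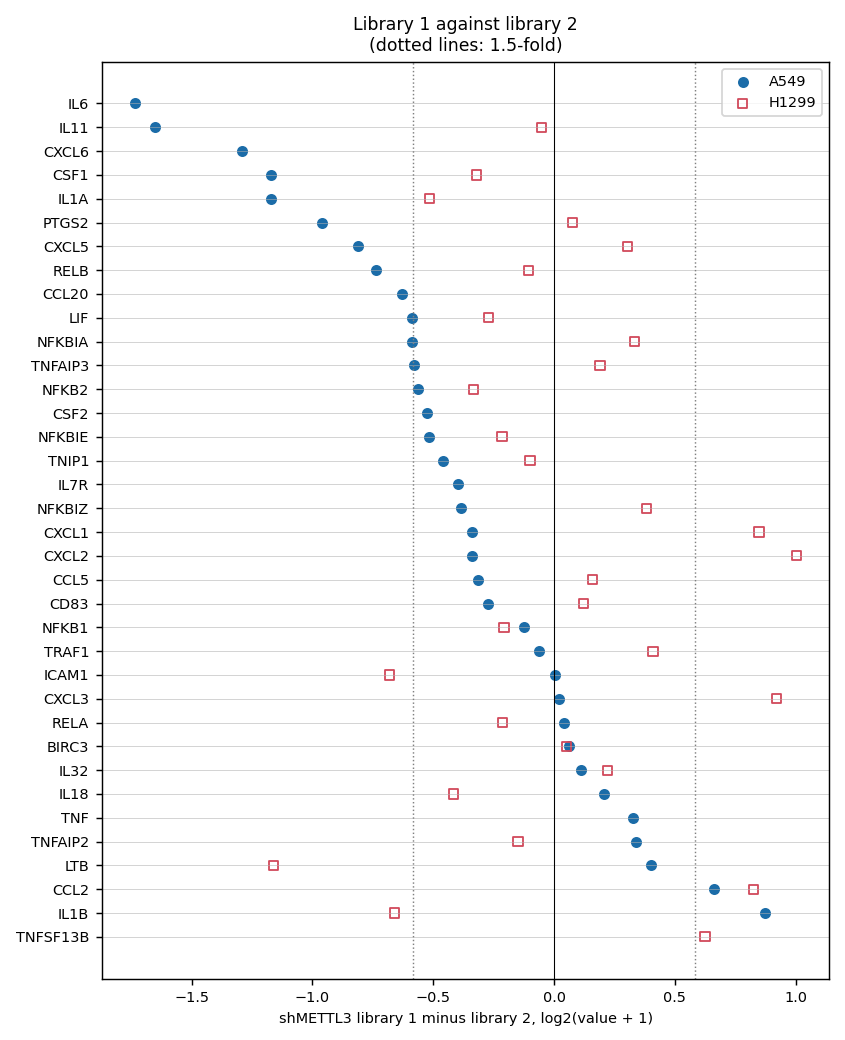
Difference of shMETTL3 library 1 from library 2 for each member, on the log2(value + 1) scale, in A549 (filled circles) and H1299 (open squares). Dotted lines mark 1.5-fold. IL11, CSF1 and PTGS2 lie below the lower line in A549, whereas CXCL1 and CXCL2 lie above the upper line in H1299.

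A fit of all 6 libraries with a term for the number called 257 of 15546 genes (1.65%) and 0 of 29 members. At an unadjusted p under 0.05 stood 8 members (IL1A, RELB, NFKB2, CCL2, IL11, LIF, NFKBIE and CSF1), where 2899 of all genes did (18.6%). Of these 8, CCL2 alone was higher in library 1. CCL2 was the 1 member at least 1.5-fold apart in the same direction in both lines (2.59% of all genes), in H1299 from 13 and 6 reads with an interval of 0.854 to 7.72 for the ratio, and no member was lower by that much in both (0.978%). Its log2 difference of number 1 from number 2 was 0.74 (SE 0.20), with a limma adjusted p of 0.0996. The smallest adjusted p of a member was 0.0987, for NFKB2 at -0.45 (SE 0.12). In both lines library 1 was lower for 9 of 29 members (20.7% of all genes), CSF1, IL11, IL1A, LIF, NFKB1, NFKB2, NFKBIE, RELB and TNIP1. It was higher in both for 4, BIRC3, CCL2, CXCL3 and IL32 (37.8%), BIRC3 in H1299 by 0.05 on the log2 scale and so by less than the 0.13 of the median gene. Both branches' subunit genes NFKB1, NFKB2 and RELB were thus among the 9, at differences that did not pass the test.

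The basal levels of the lines, read from the shGFP libraries as RPM (reads per 1000000 gene reads, with the ribosomal precursor RNA45S5 left out), lay far apart. That precursor took 0.208 to 0.284% of reads in A549 and 20.5 to 25.4% in H1299. With 1 shGFP library per line and tables scaled separately, these levels carry no test, and intervals cover counting error only. CXCL5 stood at 848 RPM in A549 and 0.353 in H1299, a ratio of 2407 (1191 to 6107). TNFAIP2 stood at 967 in A549 and 1.96 in H1299 (ratio 492.5, 360 to 686), and PTGS2 at 148 and 0.680 (ratio 217, 127 to 391). These 3 genes gave 7, 40 and 14 reads in H1299 shGFP.

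Further members at least 10-fold higher in A549 were CCL2, at 58.3 in A549 and 0.403 in H1299, IL18, at 46.2 and 0.554, CSF1, at 10.6 and 0.403, and LIF, at 89.2 and 7.65. These 7 of 29 members compare with 2.47% of all genes. CXCL2 went the other way, at 23.6 in A549 and 304 in H1299, a ratio of 0.0774 (0.0703 to 0.0850), and so did TRAF1, at 3.72 and 37.9 (ratio 0.0980, 0.0761 to 0.125). These were 2 of 29 members at least 10-fold lower in A549, against 1.67% of all genes. Within 2-fold of each other stood 9 members (59.7% of all genes), BIRC3, CCL5, IL1A, IL1B, IL32, NFKBIA, RELA, TNFAIP3 and TNIP1. In all, 19 of 29 members were higher in A549 (52.3% of all genes).

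All 4 subunit genes stood lower in A549 shGFP than in H1299 shGFP, whereas the chemokines and cytokines went both ways. RELB stood at 40.6 RPM in A549 and 216 in H1299, a ratio of 0.188 (0.174 to 0.202). NFKB2 stood at 41.1 in A549 and 117 in H1299, and NFKB1 at 34.7 and 94.7. RELA lay closer, at 28.2 in A549 and 49.9 in H1299. In RPM, all 3 A549 libraries lay above all 3 of H1299 for 15 of 29 members (38.8% of all genes). They lay below for 8 (34.6%), namely CD83, CXCL2, NFKB1, NFKB2, NFKBIE, RELA, RELB and TRAF1. All 4 NF-kB subunit genes were thus among the 8 lower in A549, and CXCL2 was the 1 secreted product there.

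**Figure D5:**
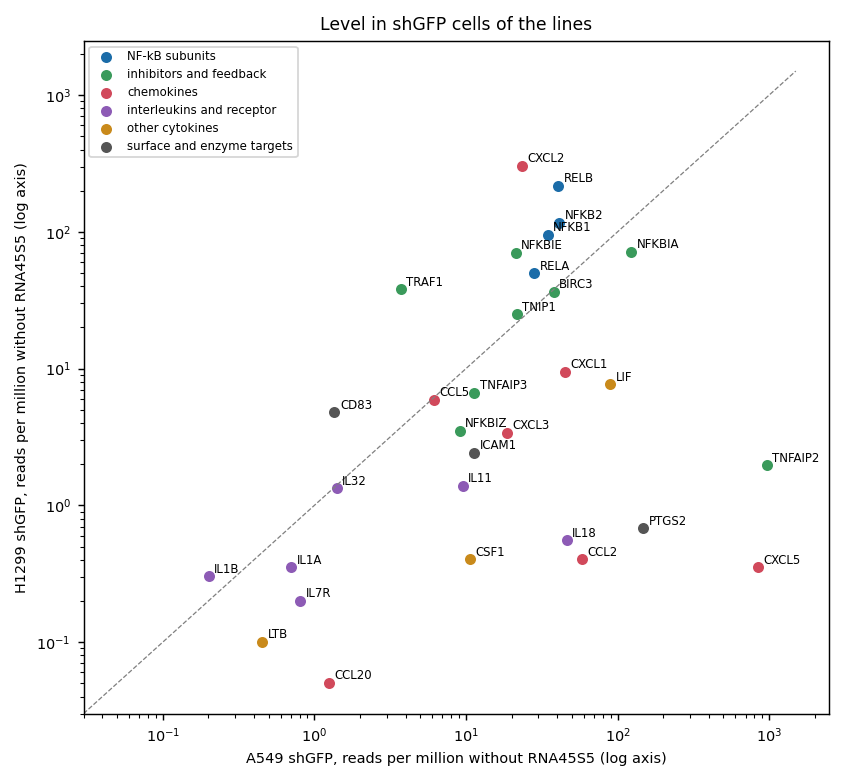
Level of each member in the shGFP library of A549 (horizontal) and H1299 (vertical), as RPM without RNA45S5, on log axes. Colours give the role and the dashed line marks equal levels. CXCL5, TNFAIP2 and PTGS2 lie far to the right of the line, and CXCL2, TRAF1 and RELB above it.

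The rest of the pathway gave no call for the knockdown either. Of 75 further genes for receptors and adaptors, kinases and ubiquitin enzymes, other Rel and I-kB proteins and other targets, 69 were tested in A549 and 59 in H1299, and limma called 0 in each. In A549, 24 of 69 were higher in both knockdown libraries (27.2% of all genes) and 13 lower (27.2%), and none reached 1.5-fold in both. In H1299, 15 of 59 were higher (30.6% of all genes) and 17 lower (24.5%). By the 1.5-fold rule, 1.15% of all H1299 genes were higher and 0.455% lower. At least 1.5-fold apart there were TNFRSF1B, a TNF receptor, at 12.4 and 15.2 in shMETTL3 libraries against 7.8 in shGFP, and CFB, a complement factor, at 1.1 and 1.2 against 2.5. The split seen for the members in A549, library 1 below and library 2 above shGFP, held for 17 of the 69 (20.5% of all genes) and the opposite split for 15 (24.9%). By list it held for 9 of 22 receptors and adaptors, 3 of 17 kinases and ubiquitin enzymes, 1 of 7 further Rel and I-kB proteins and 4 of 23 further targets, and the opposite split for 4, 3, 1 and 7.

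For the number, limma called 1 of 59 pathway genes, where 1.65% of all genes were called. It was SDC4, which encodes the proteoglycan syndecan-4 and is a known NF-kB target. SDC4 stood at 552 and 287 in A549 shMETTL3 libraries 1 and 2, against 493 in shGFP, and at 455 and 151 in H1299, against 341. It was higher in library 1 in both lines, with a log2 difference of 1.26 (SE 0.15; limma adjusted p = 0.0106). The call was lost without an intensity trend in limma (adjusted p = 0.164). Its direction was that of CCL2 and opposite to that of IL11, CSF1, LIF, RELB and NFKB2.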

How the data were processed

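RNA-seq of 6 libraries was analysed. The deposited values are a signal that the authors made by dividing whole reads by 1 factor per library, as the steps of the low values show: 100% of values were whole after multiplying back, within their rounding (2 decimals in A549, 1 in H1299). The H1299 values, with 1 decimal, were not taken as counts for a test, and H1299 reads serve only as description. Bowtie, TopHat and hg19 are named in the submitters' processing notes. What the factor rests on, the read counter and the annotation are not given in the sources used here. Per the labels' protocols, libraries came from poly(A) RNA with a TruSeq stranded kit. The design foresaw a count test had the tables held counts. They did not, so limma was kept. A549 knockdown columns, headed shMEL and a number, were matched by that number to the shMETTL3 samples.

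Values were analysed as log2(value + 1), which understates changes of low genes, for genes with a mean of at least 1. limma 3.58.1 in R 4.3.3 (lmFit, eBayes with an intensity trend, two-sided) was fitted over all genes, and a gene was called at an adjusted p (Benjamini-Hochberg) under 0.05. The fit of both lines had line as a term and 3 residual degrees of freedom, the interaction 2, and the number term 2. edgeR 4.0.16 ran on A549 reads. Code was tested on simulated data. The members and the pathway and marker lists were chosen with earlier results of these data known. A log2 change is given for members 1.5-fold or more apart from shGFP, with 1 sign, in both knockdown libraries of a line, or between the numbers in both lines. NFKB2 in the number fit, and CXCL5 and IL18 in the interaction were chosen after their values were seen, as were TNFRSF1B and CFB for their size. A further pathway gene is named where it was called, as SDC4 was. Peak lists, on hg19, were not used here. Some genes are not reported here.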

Additional observations from a re-analysis of the deposited data

How the results depend on the processing

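No member was called for the knockdown, the interaction or the number under any alternative that was run. They were median centring, no filter, a minimum mean of 5, a pseudocount of 0.1, no intensity trend, the fit of all 6 libraries for a single line, the knockdown libraries alone, the replicate block, edgeR on A549 reads with TMM or DESeq2 size factors (1.42.0), and leaving out each knockdown library. None of the 15 log2 changes followed through these alternatives changed sign, but the choice of genes largely fixed this in advance. The members among them were picked for 1 sign in both knockdown libraries of a line, or for the number in both lines. The A549 members whose 2 knockdown libraries lie on opposite sides of shGFP, such as RELB, NFKBIA and PTGS2, take the sign of the library that is kept. edgeR was not run for H1299, both lines, the interaction or the number, since H1299 values carry 1 decimal. Counting peaks over members was not done. Over all genes, median centring gave 2 calls in H1299 and 1 over both lines, against 0. For the number, no filter gave 39 calls and no intensity trend 0, against 257. METTL3 was called with median centring in H1299 (limma adjusted p = 0.00593) and both lines (0.0465). The labels' numbers are shared by the knockdown groups, and the difference of library 1 from library 2 correlated at r = 0.237 over 15546 genes between the lines. With 2 pairs this shows only a shared number. The replicate block gave 1 call over both lines, METTL3 (adjusted p = 0.0173), and 0 for the interaction. Of the 5 A549 members past 1.5-fold, 3 met a 2-fold rule (IL1B, IL7R and LTB) and 2 a minimum mean of 5 (IL32 and LTB). Of 4 in H1299, 2 met the 2-fold rule (IL18 and TNFSF13B) and 1 the minimum mean (IL32), while median centring kept 4 with CXCL1 in place of PTGS2. Depth limits the members given by their reads, and 1 shGFP library per line limits all.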
